A study of Caenorhabditis elegans with 2 samples.

Results

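The 10 genes pal-1, hlh-1, unc-120, hnd-1, hlh-8, tbx-8, tbx-9, tbx-35, ceh-51 and let-381 are transcription factor genes that set muscle and mesoderm fate in Caenorhabditis elegans. They were taken by name, as 10 of 19973 protein-coding genes on the 6 nuclear chromosomes, and each was described through all peaks with a summit from 5 kb upstream of its 5′ end to 1 kb beyond the gene end. The assay was chromatin immunoprecipitation followed by sequencing (ChIP-seq), and the protein was CEH-13, a Hox protein of the labial type, in early embryos aged 2 hours and collected by bleaching. The single group held 2 biological replicates of mixed-sex whole animals of strain OP756, which carries unc-119(tm4063) together with the transgene wgIs756. In wgIs756, ceh-13 is fused to TY1::EGFP::3xFLAG and accompanied by unc-119(+), and the immunoprecipitation was done with an antibody against GFP. The line is 1 transgenic strain, and its genotype lists no mutation of ceh-13. Whole embryos were used, so no value is resolved by cell type, and a comparison with another strain or treatment was not part of the design.

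Body wall muscle of the worm embryo comes from several founder lineages, and these genes act in a hierarchy within them. PAL-1, a caudal-type homeodomain protein, specifies the posterior lineages that give much of this muscle, whereas TBX-35, a T-box protein, and CEH-51, an NK-2-type homeodomain protein, act in the MS lineage, an anterior source of mesoderm. Downstream, HLH-1 (the worm MyoD), UNC-120 (related to serum response factor) and HND-1 (related to Hand proteins) act together in committing cells to body wall muscle. TBX-8 and TBX-9 are T-box proteins with overlapping roles in the embryo, and HLH-8 (Twist) and LET-381 (a FoxF-type forkhead protein) act in the later mesodermal M lineage. Whether the tagged Hox protein is found at this layer of regulators is the question that the windows address.

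None of the 10 windows held a peak that passed the reproducibility or q-value thresholds set on both replicates together. The pooled list and the lists of the single replicates each hold 30000 peaks with a signal score and a q-value, the false discovery rate given by the authors' peak caller. Another list holds the 512 peaks kept by the irreproducible discovery rate (IDR), a measure of how well ranks repeat between replicates, and these are the 512 strongest pooled peaks. An IDR peak lay in the window of 0 of the 10 regulators, against 5.14% of all protein-coding genes. A pooled peak at a q-value under 0.05 lay in 0 of 10, against 10.3% of all genes, and overlapping peaks of both replicates at that q-value lay in 0 of 10, against 5.33%. At these shares on average fewer than 2 of 10 genes would hold such a peak, so counts of 0 are near the background. At the tagged gene itself the strongest pooled peak had a signal of 153 and rank 193 with q = 0.00136, at -822 bp from the 5′ end, and was found at q = 0.00131 in replicate 1 and 0.00413 in replicate 2. The transgene also carries ceh-13 sequence, so this locus is not a like-for-like scale for the 10 genes. How far reads from the transgene add to the signal there was not tested.

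Weak peaks were present at all 10 genes. A pooled peak of any rank lay in 10 of 10 windows, against 83.9% of all genes, and 31 different pooled peaks were found, of which 3 lay in the windows of both tbx-8 and tbx-9. Their signal ran between 24.1 and 49.7, with a median of 31.4, where the weakest IDR peak had 86.2. Their q-values ran between 0.273 and 0.894. Their median rank was 15951, close to the 14992 of pooled peaks in any gene window, so in strength they were ordinary members of the weak part of the list. With a shared peak counted in each window that held it, the number of pooled peaks was 0.387 per kb of window over the 10 genes. Counted in the same way it was 0.308 per kb over all genes. The windows of the 10 genes were 7.23 to 10.9 kb long (median 8.59 kb, against 8.03 kb for all genes).

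The sequences around 7 of these summits are given here so that the places described below can be read: the strongest pooled peak of hlh-8, pal-1, hlh-1, tbx-8 with tbx-9, and ceh-51, and the peaks of hlh-1 and tbx-35 nearest to the 5′ end. No sequence is shown for the other regulators or for the remaining peaks. Each shows 60 bp to either side of a pooled summit, read 5′ to 3′ on the strand of the gene, from the RefSeq sequence of assembly WBcel235. Capitals mark matches on either strand to TGATNNAT (the composite Hox and PBC site), TAATTA (a homeodomain site), TTTATG (a caudal-type site), AGGTGTG (a T-box core site) or GGGCGG (the GC box). The hlh-8 and pal-1 sequences are intronic, the first hlh-1 sequence is intronic and the second lies just upstream of the gene. The tbx-8 and tbx-9 sequence lies between these 2 genes and is written on the strand of tbx-8, the tbx-35 sequence lies upstream, and the ceh-51 sequence lies upstream of ceh-51 in an intron of emb-4.

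hlh-8, chrX:8117875-8117995, plus strand: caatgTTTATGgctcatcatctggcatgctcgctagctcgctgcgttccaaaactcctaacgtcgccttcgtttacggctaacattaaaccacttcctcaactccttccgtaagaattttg
pal-1, chrIII:4805569-4805689, minus strand: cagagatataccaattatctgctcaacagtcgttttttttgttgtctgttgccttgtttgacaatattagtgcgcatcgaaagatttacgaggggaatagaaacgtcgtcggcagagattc
hlh-1 intron, chrII:4519585-4519705, plus strand: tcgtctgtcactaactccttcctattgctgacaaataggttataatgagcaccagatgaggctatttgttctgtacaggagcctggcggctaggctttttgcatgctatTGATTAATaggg
hlh-1 upstream, chrII:4518431-4518551, plus strand: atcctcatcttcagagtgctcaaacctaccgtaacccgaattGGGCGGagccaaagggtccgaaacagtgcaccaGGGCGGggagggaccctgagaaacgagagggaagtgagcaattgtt
tbx-8 and tbx-9, chrIII:10345393-10345513, plus strand: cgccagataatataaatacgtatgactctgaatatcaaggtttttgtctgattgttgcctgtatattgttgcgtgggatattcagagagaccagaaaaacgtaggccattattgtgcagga
tbx-35, chrII:5525560-5525680, minus strand: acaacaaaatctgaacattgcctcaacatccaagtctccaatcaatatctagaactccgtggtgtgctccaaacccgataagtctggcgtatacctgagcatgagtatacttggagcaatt
ceh-51, chrV:18873343-18873463, plus strand: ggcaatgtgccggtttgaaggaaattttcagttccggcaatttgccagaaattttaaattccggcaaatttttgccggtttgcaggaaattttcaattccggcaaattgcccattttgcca

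The composite Hox and PBC site stood in the printed hlh-1 intron sequence as TGATTAAT, and the caudal-type site in that of hlh-8. The upstream hlh-1 sequence held 2 GC boxes. In the printed pal-1, tbx-8 and tbx-9, tbx-35 and ceh-51 sequences none of the 5 marked motifs was found.

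Among the regulators that specify founder lineages, pal-1 had the peak of lowest q-value in a single replicate. pal-1 (WBGene00003912, chromosome III, 4804688 to 4809576, minus strand) held 6 pooled peaks, 5 peaks of replicate 1 and 7 of replicate 2. Its strongest pooled peak had a signal of 42, rank 6277 and q = 0.476, in an intron 3947 bp into the gene. In replicate 1 the peak there had rank 1123 and q = 0.0334, while the overlapping peak of replicate 2 had rank 5605, q = 0.455 and its summit 242 bp away. The nearest 5′ end to the replicate 1 summit was not that of pal-1 but that of metl-5, 2642 bp away. The replicate 1 peak made pal-1 the 1 gene of 10 with a peak at a q-value under 0.05 in that list, against 12.1% of all genes. In replicate 2 the count was 0 of 10, against 9.6% of all genes. The strongest peak of replicate 2 in the window, rank 4983, was another one 501 bp from the strongest summit of replicate 1, with no overlap. A second pal-1 intron peak lay 599 bp into the gene (pooled rank 11953, q = 0.678) and overlapped a peak of replicate 1 only.

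At the MS lineage genes the strongest pooled peaks ranked behind that of pal-1, while replicate 2 alone held 2 peaks at tbx-35 that were stronger than any pal-1 peak of that list. At tbx-35 (WBGene00006554, chromosome II, 5524101 to 5525397, minus strand) both lists placed a summit close to the start of the gene, at -221 bp in replicate 1 and -210 bp in replicate 2. These 2 summits were 11 bp apart, the closest match at any of the 10 genes between a peak of replicate 1 and its strongest overlapping peak in replicate 2, but both peaks were weak. The rank was 21689 in replicate 1 and 26664 in replicate 2, and the pooled peak had rank 17704 with q = 0.797. The strongest pooled peak of tbx-35 (signal 31.2, rank 16246) lay at -2091 bp, closer to the 5′ end of ZK177.1 (653 bp), and overlapped no peak of replicate 1. In replicate 2 the peak there had a signal of 25.4, rank 3628 and q = 0.323. A further peak of replicate 2, at -3969 bp in a UTR of ZK177.1, had a signal of 24.9, rank 3971 and q = 0.341, and overlapped no peak of replicate 1. At ceh-51 (WBGene00013583, chromosome V, 18874133 to 18875982, plus strand) each list held 1 peak. The pooled summit lay at -730 bp, with a signal of 32.5, rank 14463 and q = 0.74, and the replicate ranks were 24788 in replicate 1 and 19278 in replicate 2.

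The 3 genes that commit cells to body wall muscle differed from each other in how many weak peaks they held. hlh-1 (WBGene00001948, chromosome II, 4518574 to 4522528, plus strand) held 7 pooled peaks, 6 of replicate 1 and 8 of replicate 2. The strongest (signal 42.5, rank 5976, q = 0.467) lay in an intron 1071 bp into the gene, the one printed with the composite site. It overlapped a peak of rank 8379 in replicate 1 (q = 0.535) and one of rank 3392 in replicate 2 (q = 0.305), whose summits were 26 bp from each other. The peak at the hlh-1 promoter, at -83 bp, had a signal of 36.3, rank 10482 and q = 0.637. It overlapped a peak of rank 7506 in replicate 1 and one of rank 5321 in replicate 2, and those summits were 211 bp apart. Of the 7 pooled peaks, 5 overlapped peaks of both replicates, none with a q-value under 0.3 in either.

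unc-120 (WBGene00006844, chromosome I, 8460225 to 8463015, plus strand) held 1 pooled peak, which lay beyond the gene end at 3024 bp from the 5′ end (signal 41.1, rank 6792, q = 0.502). It overlapped a peak of replicate 1 (rank 6491, q = 0.444) and none of replicate 2, and the 4 peaks of replicate 2 in the window lay upstream or at the start of the gene. At hnd-1 (WBGene00001981, chromosome X, 11684561 to 11685788, plus strand) the single pooled peak lay at -1678 bp with a signal of 25, rank 27121 and q = 0.887. It overlapped a peak of replicate 2 (rank 7896) and none of replicate 1. At these 2 genes the replicates shared no overlapping peak.

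The strongest pooled peak of the set lay at hlh-8 (WBGene00001953, chromosome X, 8116457 to 8120351, plus strand), the Twist gene. It had a signal of 49.7, rank 3202 and q = 0.273, in an intron 1478 bp into the gene. The overlapping peaks had rank 2893 and q = 0.194 in replicate 1 and rank 14985 and q = 0.756 in replicate 2, with summits 80 bp apart. It was the one pooled peak of rank 5000 or better at the 10 genes, so 1 of 10 had such a peak, against 33.1% of all genes. Among all genes with a window of 7.23 to 10.9 kb, the range of the 10, the share was 30.6%. In each single replicate list 5 of the 10 genes had a peak of that rank, against 34% and 33.9% of all genes. let-381 (WBGene00002601, chromosome I, 6320289 to 6324019, minus strand), the other M lineage gene, held 1 pooled peak, in a coding exon 3224 bp into the gene (signal 29.5, rank 18673, q = 0.813). It overlapped a peak of replicate 1 (rank 21457), and replicate 2 had no peak in the window.

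tbx-8 and tbx-9 lie next to each other and point away from each other, so most of the stretch between them belongs to both windows, and a peak in the shared stretch cannot be given to one of them. Outside it, close to the starts, replicate 2 had a peak at -159 bp of tbx-9 (rank 12031) and one at -38 bp of tbx-8 (rank 25907), each in the window of that gene alone. tbx-8 (WBGene00006545, chromosome III, 10347349 to 10349740, plus strand) held 8 pooled peaks, the most of the 10 genes, and tbx-9 (WBGene00006546, chromosome III, 10340006 to 10341858, minus strand) held 3, all of them shared. The strongest of both lay between the genes, at -1896 bp from tbx-8 and -3595 bp from tbx-9, with a signal of 39.4, rank 7885 and q = 0.552. It overlapped a peak of rank 8240 in replicate 1 (q = 0.528) and one of rank 2122 in replicate 2 (q = 0.181). The strongest peak of replicate 1 was a different one, of rank 3222 and q = 0.226 at -2744 bp from tbx-8, and overlapped no peak of replicate 2. Inside tbx-8 the strongest pooled peak had rank 8078, with q = 0.557, in a coding exon 1094 bp into the gene.

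**Figure D1:**
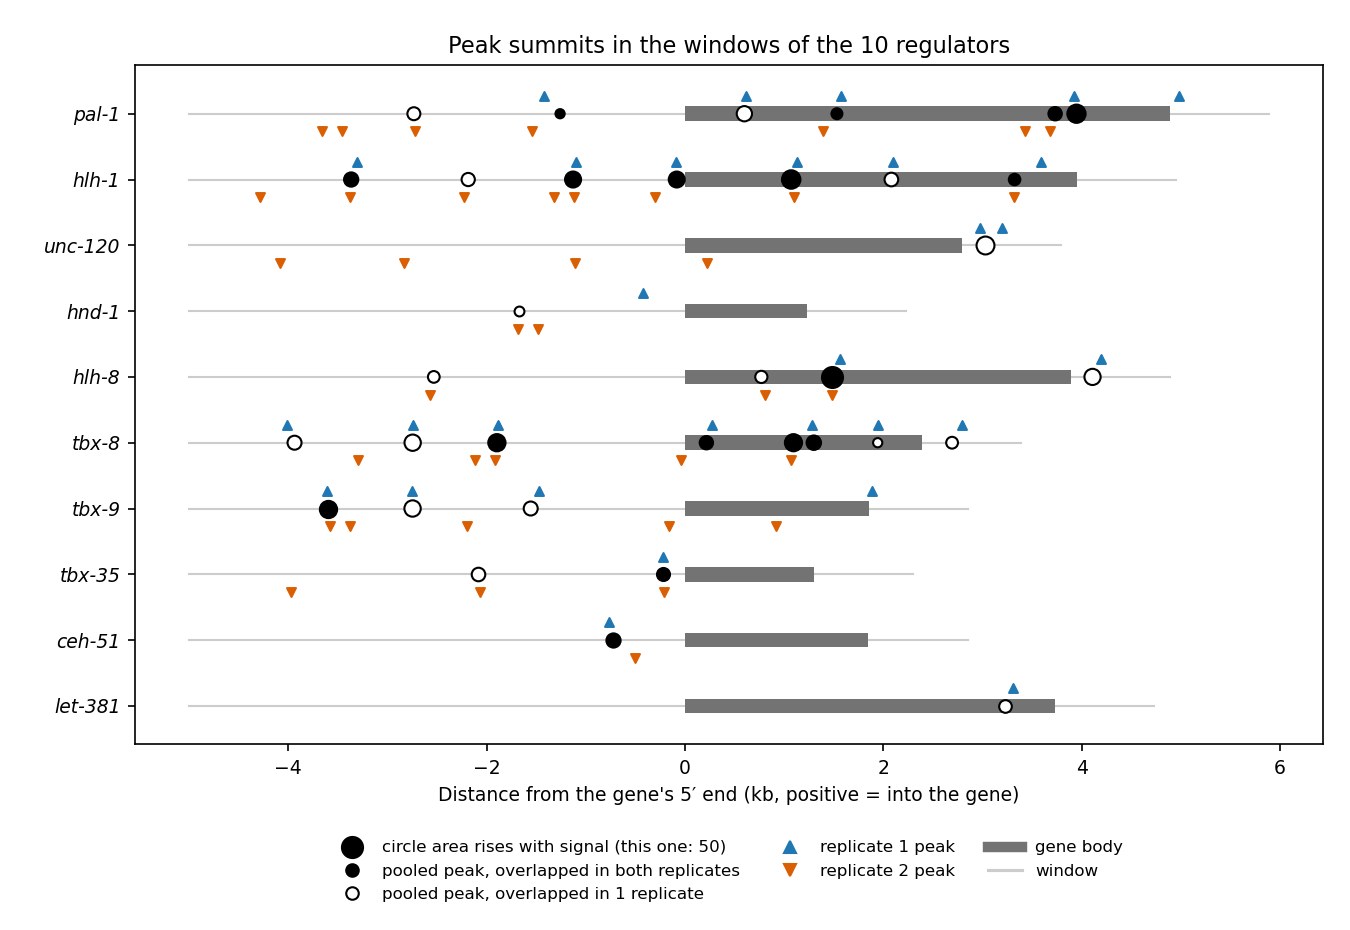
Summits at the 10 regulators by distance from the 5′ end in kb. Circles are pooled peaks, with an area that rises with signal, filled where a peak of each replicate overlaps and open where a peak of 1 replicate does; upward triangles are peaks of replicate 1 and downward triangles peaks of replicate 2. The largest circle is the hlh-8 intron peak (signal 49.7), and hlh-1 and tbx-8 carry the most pooled peaks (7 and 8).

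Over the 10 genes, the strongest pooled signal had a median of 39.4, against a median of 37.7 over all genes with a gene without a pooled peak set to 0. Of all genes, 3221 had no pooled peak in their window, and among the 16752 that had one the median was 40.5. The 10 values lay above the all-gene median at 6 genes and below it at 4. tbx-8 and tbx-9, both above it, share the same strongest peak and are each counted, and the median of 39.4 is the value of that peak. hlh-8, at the top, stood above 76% of all genes, and hnd-1, at the bottom, above 18.6%. Only the hlh-8 value passed the upper quartile of all genes, 49, and only that of hnd-1 was under the lower quartile, 28.1.

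**Figure D2:**
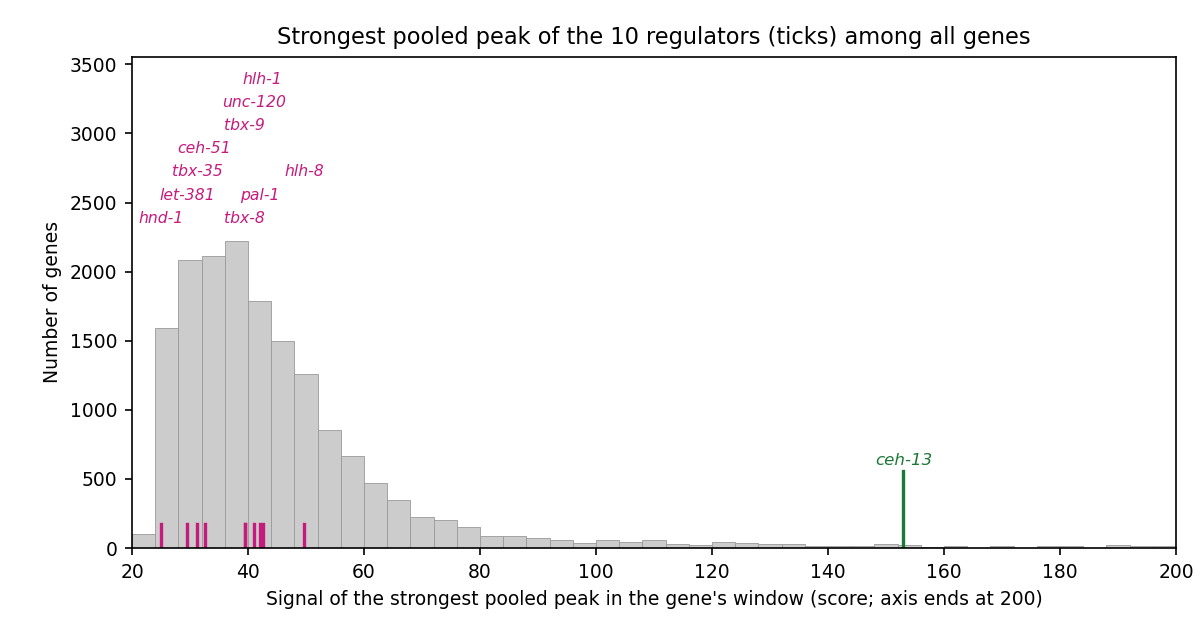
Histogram of the signal of the strongest pooled peak in the window of each protein-coding gene that has one, with the 10 regulators as ticks and their names above, and ceh-13 as a longer line. The horizontal axis is the deposited signal score and ends at 200, beyond which 270 genes lie. The ticks fall between 25 and 49.7, in the bulk of the distribution, and ceh-13, whose sequence the transgene also carries, stands at 153.

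In windows from 5 kb upstream to 1 kb beyond the gene end, the replicates agreed at the 10 genes about as often as over their whole lists. Of the 31 pooled peaks there, 16 overlapped peaks of both replicates (51.6%, against 43.6% of all pooled peaks). Of 27 peaks of replicate 1 in the windows, 14 overlapped a peak of replicate 2 by at least 1 bp (51.9%, 95% Wilson interval 34 to 69.3), against 43.4% of all 30000 peaks of replicate 1. Of 35 peaks of replicate 2, 16 overlapped one of replicate 1 (45.7%, interval 30.5 to 61.8), against 44.9% of the list. Both whole-list shares lie within these intervals. They cover the counting of peaks only, and neighbouring peaks are not independent. With summits within 100 bp as the criterion the share for replicate 1 was 22.2%, against 20.9% of its list, and for replicate 2 it was 17.1%, against 20.9%. Where peaks overlapped, the median distance between summits was 210 bp for replicate 1 peaks at the 10 genes, against 131 bp over its list. For replicate 2 it was 198 bp, against 132 bp. In the whole list of replicate 1, the overlapped share was 98% among the 500 strongest peaks, 61.1% among the next down to rank 5000, and 34.8% in the weakest 10000. None of the peaks at the 10 genes was among the 500 strongest of either replicate.

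The strongest peak of the window was seldom the same in the 2 replicates, here as over all genes. Of 9 regulators with a peak of each replicate, the strongest ones overlapped at 1, ceh-51, where the summits were 270 bp apart. Over all 15552 such genes the share was 28.3%, which corresponds to fewer than 3 of 9 genes, so the count of 1 is near the background. tbx-8 and tbx-9 have the same pair of strongest peaks, 625 bp apart, and count as 2 of the 9. The distance between the strongest summits ran from 270 bp at ceh-51 to 5807 bp at unc-120, with a median of 757 bp over the 9 genes and 1717 bp over all genes. At pal-1, hlh-1, tbx-8 and tbx-9 the strongest peak of each replicate had rank 5000 or better. These strongest peaks did not overlap and lay 501 to 997 bp apart, and none of these genes had a peak of that rank in the pooled list. No share of all genes with this pattern is given, so it has no background beside it. This comparison of strongest peaks was chosen after the values were seen.

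**Figure D3:**
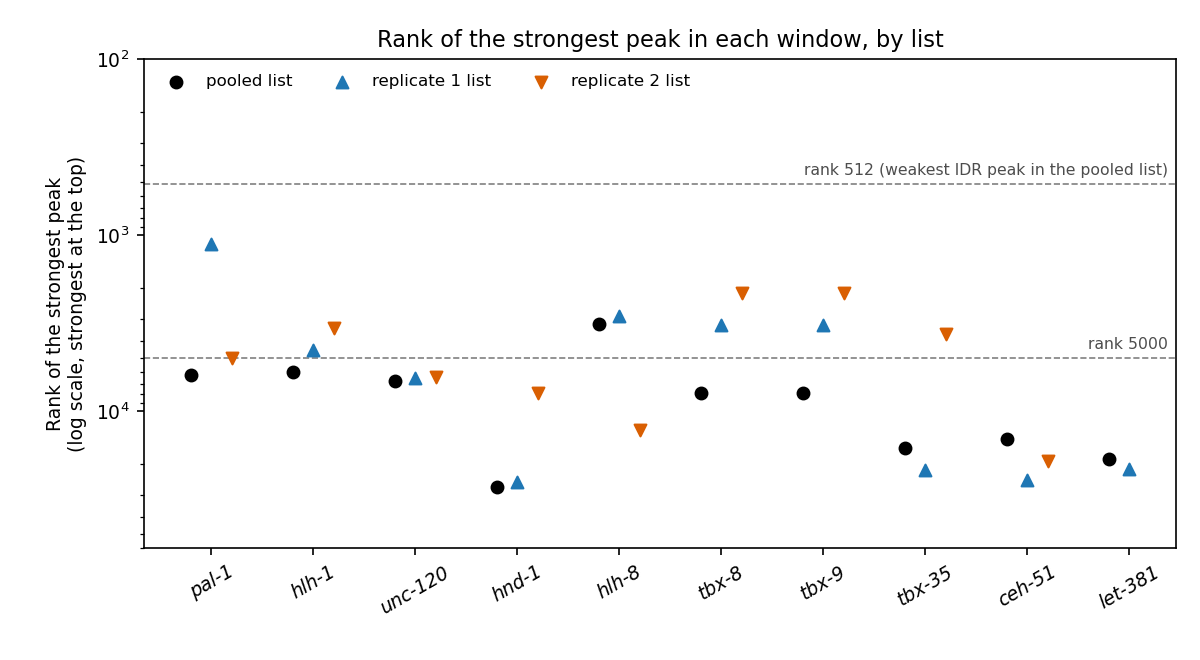
Rank of the strongest peak in the window of each regulator in the pooled list (circles), the list of replicate 1 (upward triangles) and that of replicate 2 (downward triangles), on a log scale with the strongest rank at the top. Dashed lines mark rank 512, the weakest IDR peak in the pooled list, and rank 5000; all points lie below the upper line, and pal-1 in replicate 1 comes nearest to it at rank 1123. let-381 has no point for replicate 2.

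By position, the peaks were mostly in introns and between genes. Counted once per window there were 34 pooled peaks. Of these, 10 (29.4%) lay in an intron of the regulator, against 18.4% over the windows of all genes, and 13 (38.2%) upstream between genes, against 25.4%. The 13 include the 3 peaks shared by tbx-8 and tbx-9, each counted at both genes. Shared peaks are counted in the same way in the all-gene shares. In a coding exon of the regulator lay 4 (11.8%), against 14.6%, and none was in its UTRs. The smallest distance between a pooled peak of the 10 genes and a gene for a small structural RNA or microRNA was 16110 bp, from a tbx-35 peak to the snRNA gene sls-2.2. The nearest IDR summit lay a median of 87671.5 bp from the 5′ end of the 10 genes, against 78762 bp over all genes. It was closest at tbx-35, 18317 bp away, and its nearest 5′ end was that of ins-13.

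For the motif counts, the 100 bp on either side of each of the 31 summits were searched on the 2 strands, and a match is a string of letters, not a binding site. The composite site TGATNNAT was in 4 of 31 windows (12.9%), against 12% of all 30000 pooled windows. The 4 lay at hlh-1 (ranks 5976 and 14441), hlh-8 (rank 9944) and pal-1 (rank 11953). The homeodomain site TAATTA was in 2 (6.45%, against 7.53%), at pal-1 and let-381. The caudal-type site TTTATG was in 7 (22.6%, against 13.9%) and its second form TTTATT in 11 (35.5%, against 29.1%). The E box CANNTG, which HLH-type proteins bind, was in 20 (64.5%, against 54.5%), and the GC box GGGCGG in 4 (12.9%, against 6.75%). The TCF sites CTTTGA and CTTTGT were in 2 (6.45%, against 11.9%) and 3 (9.68%, against 9.92%), and the T-box core site AGGTGTG in 0 (against 1.75%). Matches of different motifs may share bases. The GC content of the 31 windows was 41% on average, against 40.3% in all pooled windows and 45.3% at the 512 strongest.

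Of 32 other regulators that act in or before the mesodermal and myogenic lineages, 3 had an IDR peak (9.38%, against 5.14% of all genes). Their windows were longer, with a median of 11.1 kb, and among all genes with windows of 10 to 15 kb the share was 7.32%, so this count is near the background. The same 3 had peaks at a q-value under 0.05 in both replicates. At egl-17, a fibroblast growth factor gene, the peak (signal 259, rank 71) covered a tRNA gene in an intron. At sys-1, a beta-catenin of Wnt signalling, it lay beyond the gene (signal 178, rank 163), 200 bp from the 5′ end of eif-3.C. At sma-9, the worm homologue of Schnurri, it lay 2840 bp upstream (signal 106, rank 366) and 34381 bp from the nearest small RNA gene.

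The list of 43 body wall muscle structural genes was a loose one. It also holds the pharyngeal myosin genes myo-1 and myo-2, and a chaperone gene. Of the 43, 3 had an IDR peak (6.98%), namely pat-3, a beta-integrin, unc-45, a myosin chaperone, and lim-8, a LIM domain protein. The share was 5.14% of all genes and 7.32% of those with windows of 10 to 15 kb, so this count is near the background. The unc-45 peak (signal 177, rank 165) lay 59 bp from a snoRNA gene and the lim-8 peak (signal 129, rank 255) 33 bp from a tRNA gene. The pat-3 peak (signal 179, rank 159) lay upstream, closest to the 5′ end of ccdc-47. With overlapping peaks at a q-value under 0.05 in both replicates the count was 4 (9.3%, against 5.33% of all genes). Among all genes with windows of 10 to 15 kb this share was 7.7%, and the structural genes had a median window of 12 kb. The one added was unc-60, a cofilin gene, named after its value was seen, with a pooled peak of rank 536 at -300 bp, which lay equally far from the 5′ end of F53E2.2.

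Pooled peaks of rank 5000 or better lay at 13 of the 32 regulators (40.6%) and 28 of the 43 structural genes (65.1%), against 33.1% of all genes. Longer windows hold more peaks. The median window was 12 kb for the structural genes, and among all genes with windows of 10 to 15 kb the share was 45.6%. Some structural genes, such as the clustered actin genes, are near-identical copies or neighbours, so their peaks are not independent. The strongest pooled signal had a median of 40.4 over the 32 regulators and 50.7 over the structural genes, beside 39.4 over the 10 fate regulators.

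**Figure D4:**
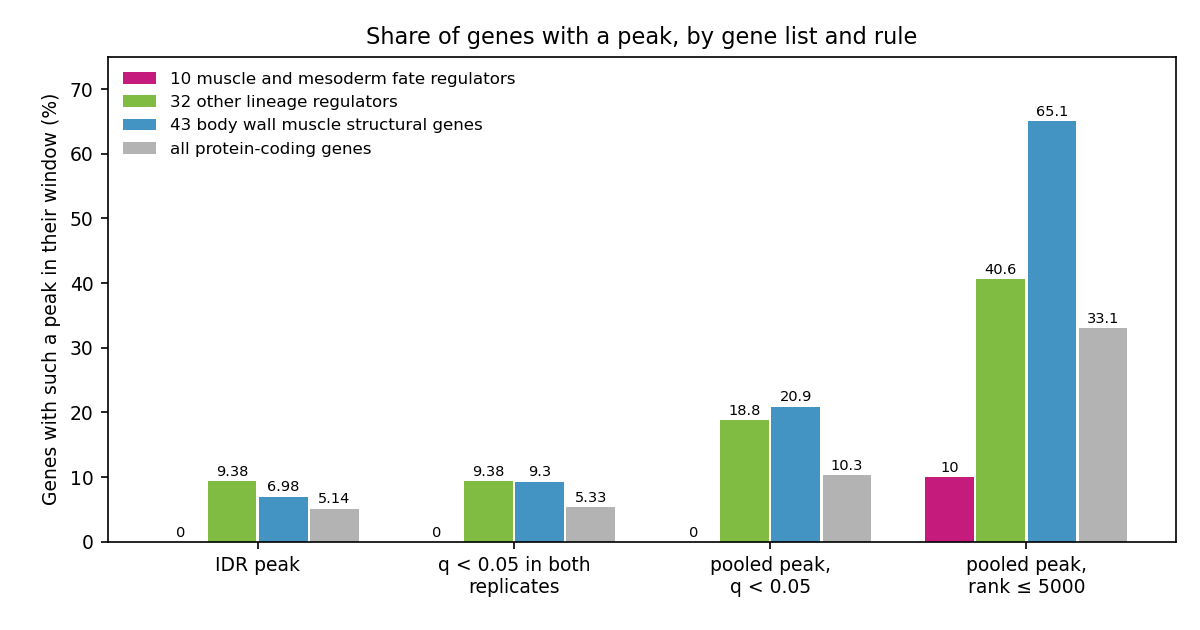
Percentage of genes with a peak in their window under each of 4 rules, for the 10 muscle and mesoderm fate regulators, 32 other lineage regulators, 43 genes listed as body wall muscle structural genes and all 19973 protein-coding genes. The 10 regulators stand at 0 under the 3 stricter rules and at 10% for a pooled peak of rank 5000 or better, where all genes stand at 33.1%. In each single replicate list, not drawn here, 5 of the 10 had a peak of that rank, against 34% and 33.9% of all genes.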

How the data were processed

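ChIP-seq was done on 2 biological replicates, with chromatin sonicated to 200 to 800 bp, per the labels. Peaks were called on each replicate and on both alignments together, each time with the same control alignment, and the IDR list was derived from those 3 lists, per the deposited file descriptions. For the caller, the aligner and the IDR threshold, no name or value is given in the sources used here. Each deposited list gives a signal score per peak, whose scale is not stated, and −log10 of a q-value. The score is the authors' own and served for ranks and descriptions inside 1 list. Read numbers are unknown, so precision comes from the agreement of the 2 lists alone.

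Positions were in ce11, per the labels, and 0 peaks ended beyond a chromosome of WBcel235, the same assembly. Genes came from Ensembl release 115. The 1-based summit of every peak was assigned to each gene whose window held it. Members and lists were chosen with earlier results of these data known. All 10 members are named. Of the 2 other lists, each gene with an IDR peak is named, as is the nearest 5′ end to a member peak at a q-value under 0.05. Other neighbours and unc-60 were named after their values were seen. Counts are set beside those of all protein-coding genes. No test was made, since there is 1 group. Overlap meant at least 1 bp. Windows, assignment to the nearest 5′ end, q-values, ranks, summit distance and single replicates were varied. Window and overlap functions were tested on simulated data with planted peaks. Computations used Python 3.11.15, pandas 2.3.3, NumPy 2.4.6 and SciPy 1.17.1.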

Additional observations from a re-analysis of the deposited data

How the results depend on the processing

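With 2 replicates, 1 control alignment and no read numbers, absence of a peak at the 10 genes means only that none was detectable in these lists. The counts of 0 for IDR peaks, for pooled peaks at a q-value under 0.05 and for replicated peaks stayed at 0 under every alternative tried, except that the list of replicate 1 alone gave 1 gene, pal-1, at a q-value under 0.05, so single replicates gave 0 to 1. The share of all genes with an IDR peak moved between 2.18% and 7.38% with the window and the assignment. The count of 1 gene with a pooled peak of rank 5000 or better became 4 with 10 kb upstream (all genes 43.7%), through peaks of hlh-1, hnd-1 and pal-1 at -7877 to -8774 bp, each closer to the 5′ end of another gene. It became 0 at rank 2500 (19.6%) and 6 at rank 10000 (52.3%), and single replicates gave 5 each (34% and 33.9%). With q under 0.5, an alternative chosen after seeing the data, it was 3, and no all-gene share is given for that count. The median strongest signal was 32.3 with 2 kb upstream and 33.7 with the nearest 5′ end only, by construction fewer peaks. In single replicates, whose scores have their own scale, it was 22.8 to 28.6. All-gene medians for these alternatives are not given, so these values cannot be read against a background. The overlap of replicate 1 peaks, 51.9% with the windows used above, was 68.4% with 2 kb upstream and 47.2% with 10 kb upstream, against 43.4% of its whole list. The share with 2 kb upstream thus stood further above the whole list, and no share over the same windows of all genes is given. With summits within 100 bp it was 22.2%, against 20.9% of the list. The count of genes whose strongest replicate peaks overlap, whose alternatives were also chosen after seeing the data, was 2 with 2 kb upstream, 0 with 10 kb upstream and 0 with summits within 100 bp. The all-gene share for this measure is given only for the windows used above (28.3%), so these alternative counts have no background beside them. No paired analysis was possible because there is 1 group and no test between groups.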
